A study of Rattus norvegicus with 12 samples.

Results

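Transcripts of DNA repair genes were followed in H9c2 cells, a cell line of embryonic rat heart origin, grouped by the pathway in which their proteins act. The list names 41 genes chosen for their function: mismatch repair, base excision repair, homologous recombination with the Fanconi anaemia pathway, end joining and the checkpoint kinases. Of these, 40 were found in the table by symbol, each at a single locus, and all 40 had a mean of at least 1 TPM, a length-scaled share of the transcripts in each library, over the 12 libraries. They stood among 12263 genes at that level, out of 30562 in the table. Msh3 was not analysed here. The libraries were stranded and made from polyadenylated RNA, and fell into 4 groups of 3: control cells with neither compound, and cells exposed to methylmalonic acid (MMA), to folic acid (FA), or to the 2 combined (MMA+FA). MMA builds up when the breakdown of propionate fails, and folic acid is the stable folate used in supplements. The sources used here give neither dose nor time of exposure. H9c2 is 1 cell line, and nothing in the labels says that the 3 libraries of a group came from separate cultures, so p-values reflect only how far these samples spread, which may be technical. The labels call the cells cardiomyocytes, but the heart muscle markers Myh6, Myh7, Actn2, Nppa, Nppb and Ryr2 did not exceed 0.32 TPM in any library. Of the 17 muscle markers measured, 8 had a mean of at least 1 TPM, among them the cardiac genes Tnnt2 (38.9 TPM), Mef2c (32.5 TPM), Nkx2-5 (11.4 TPM) and Gata4 (5.95 TPM) and the skeletal muscle regulators Myod1 (54.9 TPM) and Myog (17.4 TPM). Of 12 fibroblast markers 10 reached that level.

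As background, mismatch repair removes bases that the replication polymerases paired wrongly. Base excision repair begins with a glycosylase that cuts out a single damaged base, including the uracil that enters DNA when thymidylate, a product of the folate cycle, runs short. Homologous recombination copies a broken or stalled stretch from the sister chromatid, and the Fanconi anaemia proteins feed crosslinked forks into it. Both work in S and G2 phase, and many of their genes are transcribed with the cell cycle, whereas end joining ligates broken ends in any phase.

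TPM values of a library share a fixed total, so its depth is unknown. Pearson's r across genes was 0.987 to 0.992 within groups. Differences are given in log2(TPM + 1), a scale that compresses changes of low genes. A gene was called where limma, fitted to all 12263 genes, gave an adjusted p (Benjamini-Hochberg) under 0.05. Among all genes the median difference from control was -0.07 for MMA, -0.05 for FA and -0.12 for the 2 combined. Values are therefore also given after median-ratio scaling, under which the median gene does not change.

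Some repair transcripts rose with MMA alone, and more of them were lower once FA was added to MMA. MMA alone raised 5 of 40, namely Rad51c, Neil3, Fanci, Fancd2 and Xrcc2, and lowered 0 (11 and 2, respectively, without adjustment of p). This was 12.5% higher, beside 3.85% of all genes tested, and 0% lower, beside 16.5%. Adding FA to MMA lowered 16 of 40 and raised 0 (20 and 1 at an unadjusted p under 0.05), or 40% beside 9.53% of all genes for lower calls and 4.19% for higher calls. FA alone raised 1, Xrcc1, and lowered 1, Xrcc6, 2.5% each, against 3.67% and 8.7% of all genes. With both compounds against control, 1 was higher, Ung, and 14 were lower. The latter share, 35%, lay near the 32.6% of all genes that were lower (6.67% higher), and is not a result about repair genes. Adding MMA to FA lowered Palb2 alone and raised 0, beside calls of 8.9% and 1.6% of all genes (13 and 1 members at an unadjusted p under 0.05). In the interaction, which asks whether the difference made by MMA depended on FA, 5 of 40 were lower, 12.5% beside 1.47% of all genes, and 0 higher, beside 0.938% (14 and 1 members at an unadjusted p under 0.05). At an unadjusted p under 0.05 in either direction, 13 of 40 members and 4415 of 12263 genes passed with MMA. With FA added to MMA these were 21 and 3462, with MMA added to FA 14 and 3594, and in the interaction 15 and 2163.

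Whether the libraries of a pair of groups overlapped was read the same way. The 3 MMA libraries lay wholly above the 3 controls for 14 of 40 genes and below for 4, 35% and 10%, beside 10.5% and 34.8% of all genes. For FA against control the counts were 4 and 7, 10% and 17.5%, beside 9.43% and 24.3%. For both compounds against control they were 2 and 18, 5% and 45%, beside 10.4% and 43.4%. MMA+FA lay above MMA for 1 gene and below for 22, 2.5% and 55%, beside 10.7% and 22%, and above FA for 1 and below for 8, 2.5% and 20%, beside 5.07% and 23.7%. The share above control with MMA and the share below MMA with MMA+FA exceeded those of all genes, and the others were near or below them.

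Single libraries and the scaling decided several of these counts. Under median-ratio scaling MMA raised 9 of 40 and lowered 0, 22.5% and 0% beside 8.16% and 6.91% of all genes under the same scaling. Both compounds against control raised 3 and lowered 3, 7.5% each, below the 15.5% and 13.9% of all genes. FA added to MMA lowered 12, 30% beside 6.19%. The count for MMA was 3 without control replicate 3, that for both compounds against control was 9 without control replicate 2, and that for FA added to MMA was 8 without MMA replicate 1, 9 without MMA replicate 2 and 9 without MMA+FA replicate 2. The 5 interaction calls became 0 without control replicate 1, MMA replicate 3 or FA replicate 1, 1 without control replicate 3, MMA replicate 1, MMA+FA replicate 1 or MMA+FA replicate 2, 2 without MMA replicate 2 and 3 without control replicate 2. The 2 calls of FA alone were 0 when any control library or FA replicate 1 was left out, 1 without FA replicate 3 and 4 without FA replicate 2. The single call for MMA added to FA was 0 without FA replicate 1, FA replicate 3 or MMA+FA replicate 2, and 3 without MMA+FA replicate 3. None of the 44 called differences of the 40 genes changed direction in any of these fits.

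**Figure D1:**
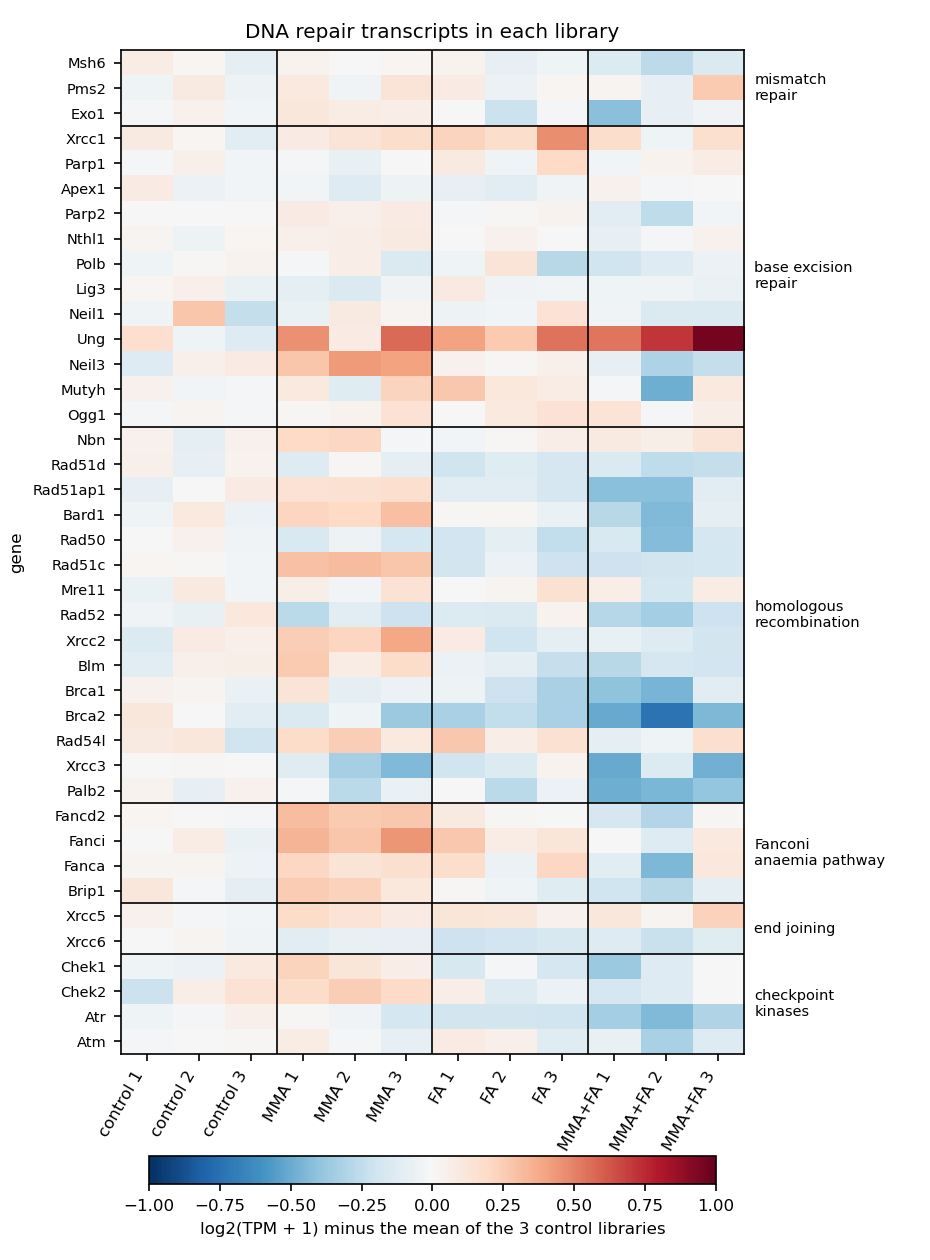
Heat map of the 40 repair transcripts (rows, by pathway) in the 12 libraries (columns, by group), coloured by log2(TPM + 1) minus the mean of the 3 control libraries. The Fanconi rows and several recombination rows are red in the 3 MMA libraries and blue or pale in the MMA+FA libraries, while Ung is darkest red with MMA+FA.

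Levels ranged widely while differences between groups were small. The scaffold gene Xrcc1 was the most abundant, with a mean of 61.1 TPM over the 12 libraries, and Palb2 the least, with 3.21 TPM. The highest group mean exceeded the lowest by 1.05-fold in Mre11 and by 1.79-fold in Ung, and by less than 1.5-fold in 36 of 40. In limma's F test across the 4 groups, 18 of 40 differed at an adjusted p under 0.05, 45% beside 41% of all genes, near the background. By pathway, beside the same 41%, 9 of 15 recombination (60%), 3 of 4 Fanconi (75%) and 3 of 12 base excision genes (25%) passed. So did 1 of 3 mismatch (33.3%), 1 of 2 end joining (50%) and 1 of 4 checkpoint genes (25%). These sets are small, and the F test used the values as deposited.

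Of the 3 mismatch repair transcripts, Msh6 alone was called, in 2 of the 6 comparisons. It was lower with MMA+FA than in control, as were 32.6% of all genes, and lower than with MMA, as were 9.53%. Msh6 (ENSRNOG00000016134), a subunit of the complex that recognises mismatches, measured 34.98, 33.6 and 31.2 TPM in the control libraries, 34.2, 33.1 and 33.8 with MMA, 34.2, 31.3 and 32.3 with FA and 30.2, 27.5 and 30.1 with MMA+FA. The MMA+FA libraries lay below all 3 control and all 3 MMA libraries. The difference was log2 -0.18, SE 0.0549, adjusted p = 0.0213 against control and log2 -0.20, SE 0.0549, adjusted p = 0.0323 against MMA. After median-ratio scaling it was -0.06, adjusted p = 0.420 and -0.15, adjusted p = 0.0761, so neither call held. As deposited, the first was lost without control replicate 1 (0.0880), control replicate 2 (0.0625) and MMA+FA replicate 2 (0.0870) and the second without MMA replicate 1 (0.108), MMA replicate 2 (0.0766), MMA replicate 3 (0.0632), MMA+FA replicate 2 (0.115) and MMA+FA replicate 3 (0.0515) (adjusted p in parentheses).

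Pms2, the endonuclease subunit that nicks the strand to be corrected, had group means between 19.8 ± 1.18 TPM in control and 20.9 ± 2.76 TPM with MMA+FA (SD, n = 3), with overlapping libraries. Exo1, the exonuclease that removes the nicked strand, had 4.6, 4.47 and 4.44 TPM with MMA and 2.87, 3.9 and 4.06 TPM with MMA+FA. These libraries did not overlap, but the difference did not pass (log2 -0.27, SE 0.102, adjusted p = 0.110; 95% interval -0.49 to -0.04). With MMA alone 0 of the 3 mismatch genes passed in limma, and 0 at an unadjusted p under 0.05. Among 15 further genes that serve mismatch repair together with replication, MMA raised 5 and lowered 0, 33.3% and 0% beside 3.85% and 16.5% of all genes. Those raised included Rfc2 of the clamp loader (0.42, adjusted p = 0.00363) and the polymerase delta subunit Pold2 (0.25, adjusted p = 0.0313). Adding FA to MMA lowered 6 and raised 0, 40% and 0% beside 9.53% and 4.19%, led by Rpa2 of the single-strand binding complex (-0.55, adjusted p = 4.31e-05) and Rfc5 (-0.41, adjusted p = 0.00101). After median-ratio scaling MMA raised 8 of the 15, 53.3% beside 8.16% of all genes, and FA added to MMA lowered 5, 33.3% beside 6.19%.

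In base excision repair, 2 of 6 glycosylase genes were called, Neil3 and Ung, and 2 of 6 downstream genes, Xrcc1 and Parp2, in 1 comparison each. Of the 12 genes, MMA, FA and both compounds against control each raised 1 and lowered 0. This was 8.33% higher, beside 3.85%, 3.67% and 6.67% of all genes, in that order. FA added to MMA lowered 2, 16.7% beside 9.53%, and the interaction was lower in 1, 8.33% beside 1.47%. After median-ratio scaling the counts were the same, the first 3 beside 8.16%, 5.78% and 15.5%. In the F test 25% passed, beside 41%. Neil3 (ENSRNOG00000011688), a glycosylase for oxidised bases in single-stranded and crosslinked DNA, measured 5.85, 6.72 and 6.89 TPM in the control libraries, 8.08, 9.05 and 8.87 with MMA, 6.7, 6.52 and 6.72 with FA and 6.07, 5.03 and 5.33 with MMA+FA. All 3 MMA libraries lay above every other library. MMA raised it (log2 0.37, SE 0.0790, adjusted p = 0.00875), and FA added to MMA lowered it (log2 -0.58, SE 0.0790, adjusted p = 0.000641), calls kept with any 1 library left out. With FA already present, MMA gave log2 -0.24, SE 0.0790, adjusted p = 0.0681 (95% interval -0.41 to -0.07). The interaction was log2 -0.61, SE 0.112, adjusted p = 0.0179, and it was lost without control replicate 1 (0.0536), MMA replicate 3 (0.0509) and FA replicate 1 (0.0527).

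Ung (ENSRNOG00000000692), which removes uracil from DNA, was the 1 repair gene called higher with both compounds than in control. It measured 6.39, 5.39 and 5.0 TPM in the control libraries, 8.02, 5.97 and 8.7 with MMA, 7.7, 6.89 and 8.57 with FA and 8.5, 9.78 and 11.7 with MMA+FA. Every MMA+FA library but the lowest, at 8.5 TPM, exceeded all libraries of the other groups, and the lowest exceeded all 3 control libraries. Both compounds together raised it (log2 0.73, SE 0.137, adjusted p = 0.00159; 0.84, adjusted p = 0.00104 after median-ratio scaling), a call kept in each of 6 fits with 1 library left out. MMA alone gave 0.37, adjusted p = 0.0753 and FA alone 0.40, adjusted p = 0.0723, neither of which passed. The interaction was log2 -0.04, SE 0.194, adjusted p = 0.942, with a 95% interval of -0.46 to 0.38.

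Of the remaining glycosylase genes, Ogg1 (oxidised guanine), Mutyh (adenine paired with oxidised guanine), Nthl1 and Neil1 (oxidised pyrimidines) passed in 0 of the 6 limma comparisons. Ogg1 stayed between 3.84 and 4.41 TPM and Nthl1 between 31.1 and 35.0 TPM in the 12 libraries. Mutyh ran from 2.95 TPM in MMA+FA replicate 2 to 5.69 TPM in FA replicate 1, and Neil1 from 9.5 to 14.02 TPM, both in control libraries.

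Downstream of the glycosylases, Apex1 cuts the site left without a base, Polb fills the gap, Xrcc1 and Lig3 form the complex that seals it, and Parp1 and Parp2 sense strand breaks. Xrcc1 (ENSRNOG00000019915) measured 59.03, 56.4 and 51.4 TPM in the control libraries, 58.9, 60.9 and 62.9 with MMA, 64.9, 62.8 and 76.8 with FA and 63.01, 53.9 and 62.3 with MMA+FA. FA alone raised it (log2 0.29, SE 0.0812, adjusted p = 0.0403), and all 3 FA libraries lay above the 3 controls, FA replicate 3 by the most. The call was lost without control replicate 1 (0.0591), control replicate 2 (0.0807), control replicate 3 (0.158), FA replicate 1 (0.0762) and FA replicate 3 (0.129). Parp2 (ENSRNOG00000008892) measured 35.3, 35.4 and 35.3 TPM in the control libraries, 37.5, 36.6 and 37.5 with MMA, 34.9, 35.6 and 36.2 with FA and 32.8, 29.4 and 34.6 with MMA+FA. It was lower with MMA+FA than with MMA (log2 -0.20, SE 0.0526, adjusted p = 0.0252), with no overlap of libraries, a call lost without MMA replicate 1 (0.0845), MMA replicate 2 (0.0649), MMA replicate 3 (0.0549), MMA+FA replicate 1 (0.0507) and MMA+FA replicate 2 (0.0745). Parp1, Apex1, Polb and Lig3 passed in 0 of the 6 comparisons, with differences against control between -0.13 (Polb, MMA+FA) and 0.08 (Parp1, FA). Among 11 further base excision genes, Tdg alone passed in any comparison (-0.14, adjusted p = 0.0267, MMA+FA against control, where the median of all genes was -0.12). After median-ratio scaling Tdg was not called (-0.02, adjusted p = 0.755), and 2 others were higher in that comparison, the flap nuclease gene Fen1 (0.29, adjusted p = 0.0232) and the polymerase gene Poll (0.31, adjusted p = 0.0143), named after their values were seen.

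**Figure D2:**
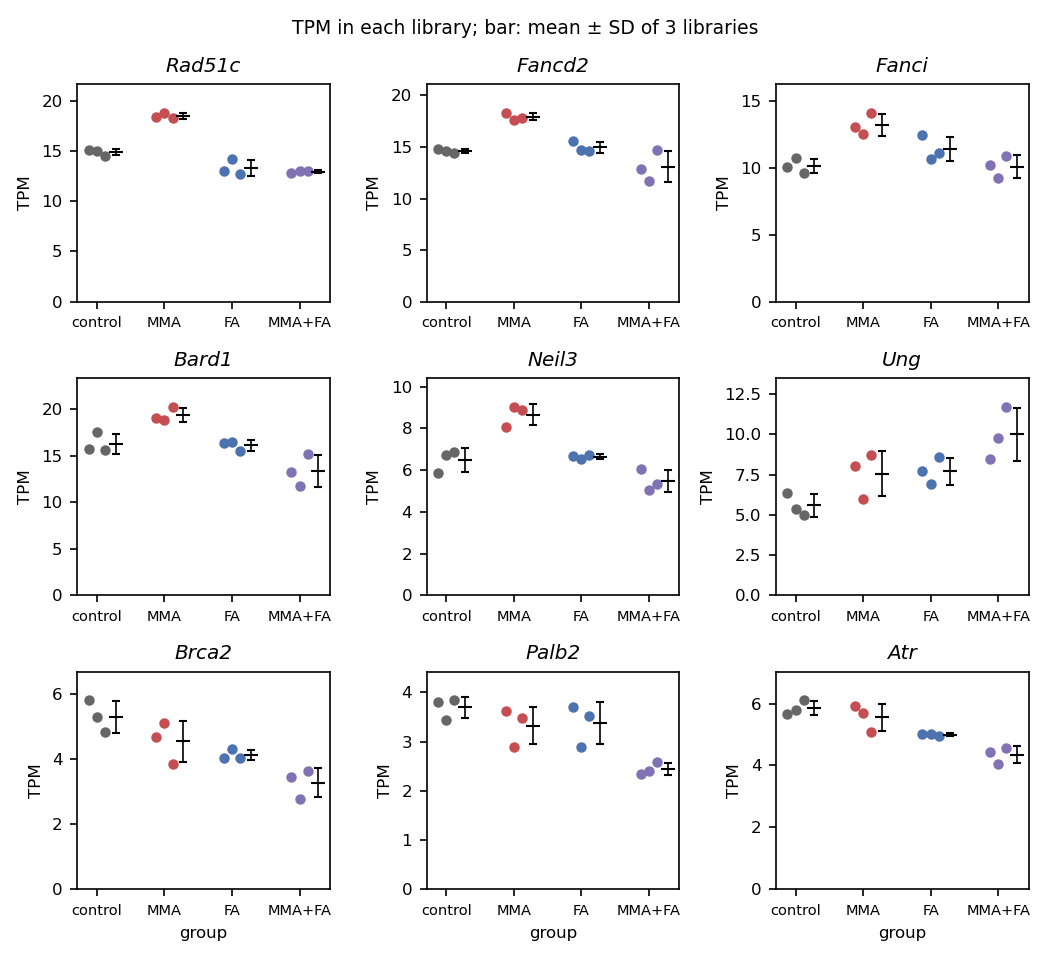
TPM of 9 repair genes in each library (points) with mean ± SD of the 3 libraries of each group (black bars); the axes start at 0. Rad51c, Fancd2, Fanci, Bard1 and Neil3 are highest with MMA alone, Ung is highest and Brca2, Palb2 and Atr are lowest with MMA+FA.

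Among 15 homologous recombination transcripts, 2 rose with MMA (13.3% beside 3.85% of all genes) and 7 fell when FA was added to it (46.7% beside 9.53%). The 15 genes together summed to 174, 175 and 176 TPM in the control libraries, 185, 186 and 181 TPM with MMA, 164, 165 and 164 TPM with FA, and 152, 144 and 161 TPM with MMA+FA. The 4 ranges did not overlap. FA added to MMA lowered 7 of 15 and raised 0, and all 15 differences were negative as deposited (median -0.31, beside -0.04 for all genes). After median-ratio scaling 14 were negative (median -0.28, beside 0.001 for all genes). As deposited, MMA alone raised 2 and lowered 0 (median 0.06, beside -0.07). Against control, MMA+FA lowered 11 and raised 0 (median -0.25, beside -0.12), 73.3% and 0% beside 32.6% and 6.67% of all genes. After median-ratio scaling this comparison gave 2 lower and 1 higher, 13.3% and 6.67%, which is not above the 13.9% and 15.5% of all genes. Under the same scaling FA added to MMA lowered 6, 40% beside 6.19%.

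Rad51c (ENSRNOG00000006661), a paralogue of the recombinase that helps it load, measured 15.1, 15.03 and 14.5 TPM in the control libraries, 18.4, 18.8 and 18.3 with MMA, 13.01, 14.2 and 12.7 with FA and 12.8, 13.01 and 13.1 with MMA+FA. The MMA libraries stood above all 9 others. MMA raised it (log2 0.30, SE 0.0504, adjusted p = 0.00367), and adding FA to MMA lowered it (log2 -0.48, SE 0.0504, adjusted p = 0.000133), the smallest p of any member. Both calls held with any 1 library left out and after median-ratio scaling (0.37, adjusted p = 0.00189, and -0.44, adjusted p = 0.000253). Against control, MMA+FA was lower as deposited (-0.19, adjusted p = 0.0117), but not after scaling (-0.07, adjusted p = 0.320). With FA already present, MMA made a difference of -0.04 (95% interval -0.15 to 0.07). The interaction was log2 -0.33, SE 0.0713, adjusted p = 0.0328, kept in 3 of 12 fits with 1 library left out, with adjusted p-values up to 0.0912 (without control replicate 3).

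Its partners in the paralogue complexes had values of their own. Xrcc2 (ENSRNOG00000007493) measured 4.77, 5.72 and 5.59 TPM in the control libraries, 6.52, 6.36 and 7.31 with MMA, 5.71, 4.53 and 4.92 with FA and 5.02, 4.8 and 4.6 with MMA+FA. The 3 MMA libraries were again above all others. The rise with MMA (log2 0.28, SE 0.0900, adjusted p = 0.0437) was lost with any 1 library left out, with adjusted p-values up to 0.158 (without control replicate 1). Its fall from MMA to MMA+FA (log2 -0.41, SE 0.0900, adjusted p = 0.0105) was kept in each such fit. Rad51d (ENSRNOG00000007596) measured 23.7, 21.5 and 23.4 TPM in the control libraries, 20.8, 23.03 and 21.4 with MMA, 19.8, 20.9 and 20.2 with FA and 20.6, 19.02 and 19.2 with MMA+FA, without the peak at MMA. It was lower with MMA+FA than in control (log2 -0.21, SE 0.0563, adjusted p = 0.0105), though not after median-ratio scaling (-0.09, adjusted p = 0.210). Xrcc3 had 4.41, 4.48 and 4.42 TPM in control and 4.01, 3.33 and 3.0 TPM with MMA, a difference of -0.30, adjusted p = 0.0864. Its difference with MMA+FA was -0.37, adjusted p = 0.0221 against control and -0.28, adjusted p = 0.0947 after scaling, and the deposited call was lost without control replicate 1 (0.0524), control replicate 2 (0.0568), control replicate 3 (0.0556), MMA+FA replicate 1 (0.0820) and MMA+FA replicate 3 (0.0776).

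Next came the genes whose proteins load the recombinase at a break. Bard1 (ENSRNOG00000014960), the ubiquitin ligase partner of Brca1, measured 15.7, 17.5 and 15.6 TPM in the control libraries, 19.01, 18.9 and 20.3 with MMA, 16.4, 16.4 and 15.5 with FA and 13.3, 11.7 and 15.2 with MMA+FA. FA added to MMA lowered it (log2 -0.51, SE 0.0792, adjusted p = 0.00136), and this held with any 1 library left out. The difference of MMA+FA from control was -0.27, adjusted p = 0.0176, and -0.15, adjusted p = 0.150 after scaling, and was lost without control replicate 2 (0.0732) and MMA+FA replicate 2 (0.0720). MMA alone gave log2 0.24, SE 0.0792, adjusted p = 0.0508, just outside the threshold, and 0.31, adjusted p = 0.0197 after median-ratio scaling. The interaction was log2 -0.49, SE 0.112, adjusted p = 0.0415, kept in 2 of 12 fits with 1 library left out, with adjusted p-values up to 0.111 (without control replicate 1). Brca1 itself showed no such peak: 5.39, 5.3 and 4.9 TPM in the control libraries, 5.77, 4.79 and 4.95 with MMA, 4.99, 4.37 and 3.94 with FA and 3.68, 3.49 and 4.77 with MMA+FA. Its difference with MMA was -0.01 (95% interval -0.24 to 0.23), and that with MMA+FA against control was -0.32, adjusted p = 0.0320 as deposited and -0.22, adjusted p = 0.128 after scaling. The deposited call was lost without control replicate 1 (0.0887), control replicate 2 (0.0800), MMA+FA replicate 1 (0.0975) and MMA+FA replicate 2 (0.118).

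Brca2 (ENSRNOG00000001111), which delivers the recombinase to single-stranded DNA, and Palb2 (ENSRNOG00000025126), which joins it to Brca1, were lowest with both compounds. Brca2 measured 5.81, 5.28 and 4.83 TPM in the control libraries, 4.69, 5.1 and 3.86 with MMA, 4.03, 4.32 and 4.03 with FA and 3.44, 2.77 and 3.62 with MMA+FA. Its MMA+FA libraries lay below all 9 others. The fall against control was log2 -0.56, SE 0.105, adjusted p = 0.00155, or -0.46, adjusted p = 0.00459 after median-ratio scaling, and held with any 1 library left out. Palb2 measured 3.8, 3.44 and 3.84 TPM in the control libraries, 3.62, 2.89 and 3.47 with MMA, 3.71, 2.89 and 3.51 with FA and 2.34, 2.41 and 2.58 with MMA+FA, again with all 3 MMA+FA libraries at the bottom. The fall against control was log2 -0.45, SE 0.0975, adjusted p = 0.00388 (-0.35, adjusted p = 0.0159 after scaling), also in each such fit. Its lower level with MMA+FA than with FA (-0.34, adjusted p = 0.0457) was lost without FA replicate 1 (0.145), FA replicate 3 (0.111), MMA+FA replicate 1 (0.0976), MMA+FA replicate 2 (0.116) and MMA+FA replicate 3 (0.0793) and after scaling (0.0939). Against MMA the 2 genes had -0.38, adjusted p = 0.0334, and -0.33, adjusted p = 0.0445, or -0.34, adjusted p = 0.0418, and -0.29, adjusted p = 0.0641, after scaling. As deposited, the Brca2 call against MMA was lost without MMA replicate 1 (0.111), MMA replicate 2 (0.141), MMA+FA replicate 1 (0.0590) and MMA+FA replicate 2 (0.118). That of Palb2 was lost without MMA replicate 1 (0.162), MMA replicate 3 (0.0946), MMA+FA replicate 1 (0.117), MMA+FA replicate 2 (0.1001) and MMA+FA replicate 3 (0.0718). Neither gene had a positive difference with MMA alone (-0.19 and -0.12), and their interactions were -0.08, adjusted p = 0.826, and -0.22, adjusted p = 0.445.

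Rad51ap1 (ENSRNOG00000059878), which stimulates strand exchange, measured 19.4, 20.5 and 21.8 TPM in the control libraries, 22.8, 22.98 and 23.1 with MMA, 18.99, 18.9 and 18.2 with FA and 15.1, 15.1 and 18.9 with MMA+FA. It was lower with MMA+FA than in control (-0.32, adjusted p = 0.00611), not after scaling (-0.20, adjusted p = 0.0548). It was also lower than with MMA (log2 -0.47, SE 0.0758, adjusted p = 0.00166), a call kept in each fit with 1 library left out and after scaling (-0.43, adjusted p = 0.00231). The helicase gene Blm had 6.67, 5.76 and 6.3 TPM with MMA and 4.29, 4.7 and 4.6 TPM with MMA+FA, a difference of -0.39, adjusted p = 0.00724, kept with any 1 library left out. Its difference from control, -0.21, adjusted p = 0.0495 (-0.11, adjusted p = 0.323 after scaling), was lost without control replicate 2 (0.141), control replicate 3 (0.147), MMA+FA replicate 1 (0.140), MMA+FA replicate 2 (0.0668) and MMA+FA replicate 3 (0.0828). Rad54l, a motor protein of strand exchange, passed in 0 of the 6 comparisons and stayed between 3.05 and 4.61 TPM. Rad52 was lower with MMA+FA than in control (-0.28, adjusted p = 0.0120), not after scaling (-0.17, adjusted p = 0.0992) or without control replicate 3 (0.0581). The complex of Mre11, Rad50 and Nbn, which senses and trims broken ends, did not move as a unit. Rad50 had -0.25, adjusted p = 0.0197 against control with MMA+FA (-0.14, adjusted p = 0.163 after scaling), lost without control replicate 2 (0.0633) and MMA+FA replicate 2 (0.0725). Mre11 had -0.01, adjusted p = 0.934, and Nbn had 0.09, adjusted p = 0.264 as deposited but 0.21, adjusted p = 0.0144 after scaling.

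Of the 4 Fanconi anaemia genes, 2 rose with MMA (50% beside 3.85% of all genes) and 3 fell when FA was added to it (75% beside 9.53%). All 4 had positive differences with MMA (median 0.24, beside -0.07 for all genes). All 4 had MMA libraries entirely above the MMA+FA libraries, 100% beside 22% of all genes. Fancd2 (ENSRNOG00000061085) and Fanci (ENSRNOG00000016689) encode the pair that is ubiquitinated at crosslinked DNA. Fancd2 measured 14.8, 14.6 and 14.4 TPM in the control libraries, 18.3, 17.6 and 17.8 with MMA, 15.6, 14.7 and 14.6 with FA and 12.8, 11.7 and 14.7 with MMA+FA. MMA raised it (log2 0.28, SE 0.0677, adjusted p = 0.0143; lost without control replicate 3 (0.0506)), and FA added to MMA lowered it (log2 -0.43, SE 0.0677, adjusted p = 0.00144). Fanci measured 10.1, 10.7 and 9.65 TPM in the control libraries, 13.1, 12.5 and 14.1 with MMA, 12.4, 10.7 and 11.1 with FA and 10.2, 9.22 and 10.9 with MMA+FA. It rose with MMA (log2 0.35, SE 0.0758, adjusted p = 0.00908) and was lower again with MMA+FA (log2 -0.36, SE 0.0758, adjusted p = 0.00840), both kept with any 1 library left out. The interaction was log2 -0.47, SE 0.0957, adjusted p = 0.0284 for Fancd2 and log2 -0.51, SE 0.107, adjusted p = 0.0311 for Fanci. These were kept in 3 of 12 and 5 of 12 fits with 1 library left out, with adjusted p-values up to 0.0815 (without FA replicate 1) and 0.0871 (without control replicate 3).

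Brip1, a helicase that binds Brca1, had 4.06, 3.98 and 3.57 TPM with MMA and 2.7, 2.5 and 2.97 TPM with MMA+FA (-0.39, adjusted p = 0.0129, lost without MMA replicate 1 (0.0594) and MMA replicate 2 (0.0537)). Fanca, of the core ligase complex, was not called with MMA (0.16, adjusted p = 0.340) or when FA was added to it (-0.32, adjusted p = 0.0995), and MMA+FA replicate 2, at 3.9 TPM, was its lowest library. Of 26 further recombination and Fanconi genes, FA added to MMA lowered 7 and raised 0, 26.9% and 0% beside 9.53% and 4.19% of all genes. The smallest p-values were those of Ube2t, which ubiquitinates the Fancd2 and Fanci pair (-0.62, adjusted p = 0.000263), and Usp1, which removes the mark (-0.39, adjusted p = 0.000947). MMA alone raised 0 of these 26 and lowered 1, the nuclease scaffold gene Slx4 (-0.33, adjusted p = 0.0169), beside 3.85% and 16.5% of all genes. After median-ratio scaling MMA raised 6 and lowered 1, 23.1% and 3.85% beside 8.16% and 6.91% of all genes.

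**Figure D3:**
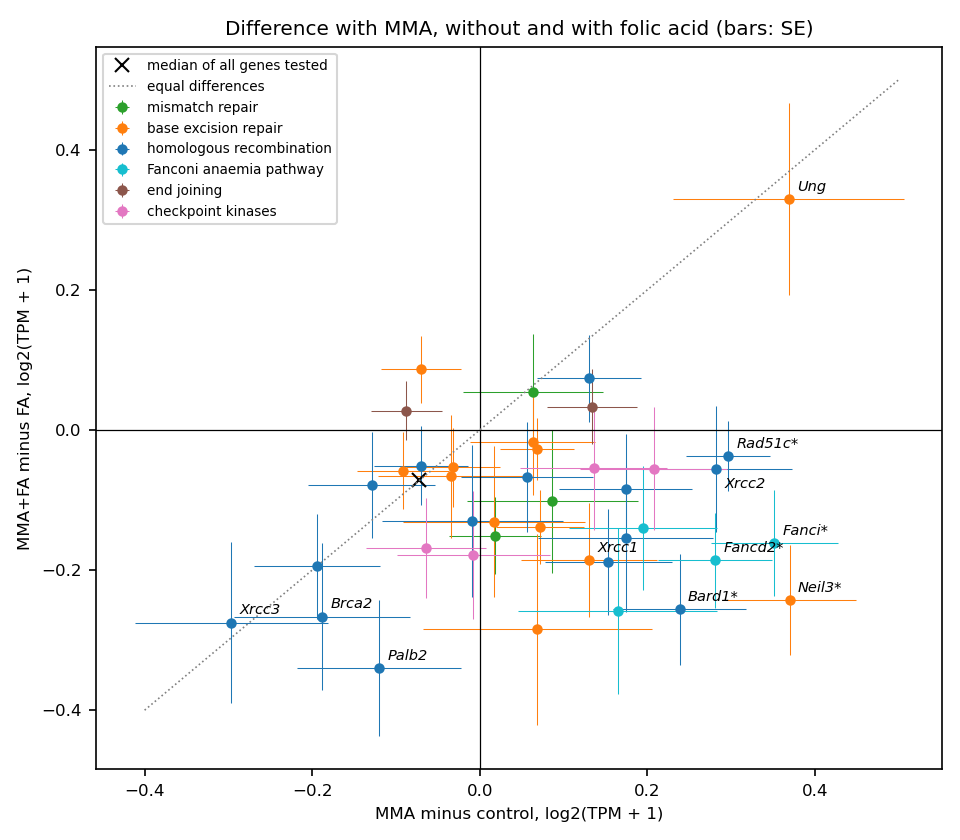
Difference made by MMA without FA (x axis, MMA minus control) and with FA (y axis, MMA+FA minus FA) in log2(TPM + 1) for the 40 repair genes, coloured by pathway, with SE bars and asterisks on the 5 genes called in the interaction. The 2 axes use different libraries; the 4 Fanconi genes, Bard1, Rad51c and Neil3 sit to the right of 0 on x and below 0 on y, whereas Ung lies near the dotted line of equal differences.

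The difference made by MMA was compared without and with FA, since these comparisons share no library. The sign was the same in 16 of 40 repair genes (4 positive and 12 negative), 40%, beside 66.4% of all genes tested. It was opposite in 4 of 4 Fanconi genes, 7 of 15 recombination genes, 8 of 12 base excision genes and 2 of 3 mismatch genes. The difference made by FA, without and with MMA, had the same sign in 60% of the 40 beside 65.1% of all genes. For recombination it was negative in both in 12 of 15 genes. After median-ratio scaling the first share was 50% (15 positive and 5 negative), beside 62.2% of all genes, so the split of signs depends on the scaling. The 4 Fanconi genes still had opposite signs, and the share for FA was 62.5% beside 62.4%, with 11 of 15 recombination genes negative in both. These shares count signs of values most of which did not pass the test.

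End joining rests on the Ku pair, which caps broken ends, and its 2 genes had differences of opposite sign with MMA and with FA. Xrcc6 (ENSRNOG00000006392) measured 43.5, 44.1 and 42.3 TPM in the control libraries, 39.98, 41.2 and 40.95 with MMA, 37.4, 37.8 and 38.7 with FA and 39.5, 36.9 and 39.8 with MMA+FA, so all 9 treated libraries lay below the 3 controls. FA lowered it (log2 -0.19, SE 0.0421, adjusted p = 0.0191; -0.14, adjusted p = 0.0493 after scaling), a call lost without control replicate 1 (0.0580), control replicate 2 (0.0625), control replicate 3 (0.0604) and FA replicate 1 (0.0733). With MMA alone Xrcc6 was not called. Its difference of -0.09 lay near the median of -0.07 for all genes, and was -0.01, adjusted p = 0.879 after scaling. MMA+FA lowered Xrcc6 as deposited (log2 -0.16, SE 0.0421, adjusted p = 0.0111), but not after scaling (-0.04, adjusted p = 0.515). Xrcc5 measured 47.6, 45.8 and 45.4 TPM in the control libraries, 52.6, 50.95 and 49.1 with MMA, 50.5, 50.1 and 47.7 with FA and 50.2, 47.2 and 54.6 with MMA+FA. It was not called with MMA (0.13, adjusted p = 0.0934) or MMA+FA (0.13, adjusted p = 0.0814) as deposited, but was higher in both after scaling (0.21, adjusted p = 0.0146, and 0.25, adjusted p = 0.00273). Of 12 further end joining genes, MMA lowered 2, 16.7% beside 16.5% of all genes, and FA lowered 1, 8.33% beside 8.7%. Both compounds against control lowered 7, 58.3% beside 32.6%, and after scaling 4, 33.3% beside 13.9%. No gene of this list was raised in these comparisons. Nhej1, a ligation factor, fell with FA (-0.59, adjusted p = 0.00323), with MMA (-0.35, adjusted p = 0.0120) and with both against control (-0.81, adjusted p = 4.41e-05). Tp53bp1, which shields broken ends, fell with MMA (-0.25, adjusted p = 0.00512).

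Of the checkpoint kinases, Atr (ENSRNOG00000010027), which responds to stalled forks, measured 5.66, 5.8 and 6.11 TPM in the control libraries, 5.92, 5.7 and 5.08 with MMA, 5.02, 5.02 and 4.96 with FA and 4.43, 4.04 and 4.56 with MMA+FA. The MMA+FA libraries were below all others. They differed from control by log2 -0.36, SE 0.0717, adjusted p = 0.00231 (-0.26, adjusted p = 0.0114 after scaling), a call kept in each fit with 1 library left out. The difference from MMA was log2 -0.30, SE 0.0717, adjusted p = 0.0174, lost without MMA replicate 1 (0.0809), MMA replicate 2 (0.0703) and MMA+FA replicate 2 (0.0606). Atm, which responds to double-strand breaks, was not called in any of the 6 comparisons and ranged from 2.54 to 3.71 TPM. The effector kinase genes Chek1 (ENSRNOG00000071217) and Chek2 (ENSRNOG00000037509) were both lower with MMA+FA than with MMA. Chek1 measured 22.7, 22.5 and 25.2 TPM in the control libraries, 27.5, 25.6 and 24.6 with MMA, 20.9, 23.3 and 20.8 with FA and 17.9, 21.4 and 23.5 with MMA+FA, and Chek2 measured 12.03, 14.9 and 15.7 TPM in the control libraries, 16.1, 16.9 and 16.3 with MMA, 14.8, 12.8 and 13.5 with FA and 12.5, 12.8 and 14.2 with MMA+FA. The differences were log2 -0.30, SE 0.0880, adjusted p = 0.0396 and log2 -0.31, SE 0.0877, adjusted p = 0.0374, or -0.26, adjusted p = 0.0718, and -0.26, adjusted p = 0.0660, after median-ratio scaling. The call for Chek1 was lost without MMA replicate 1 (0.146), MMA replicate 2 (0.102), MMA+FA replicate 1 (0.130) and MMA+FA replicate 2 (0.0718). That for Chek2 was lost without MMA replicate 1 (0.0880), MMA replicate 2 (0.126), MMA replicate 3 (0.0646), MMA+FA replicate 1 (0.118) and MMA+FA replicate 2 (0.101). Among 16 further checkpoint genes, FA added to MMA lowered 4 and raised 0, 25% and 0% beside 9.53% and 4.19% of all genes. The 4 included Wee1, which restrains entry into mitosis (-0.40, adjusted p = 0.00103), and Mdc1, an adaptor at broken DNA (-0.43, adjusted p = 0.00604).

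Markers of cycling cells moved in the same comparisons. Of 28 S phase genes, MMA raised 14 and lowered 0 (median 0.29), 50% and 0% beside 3.85% and 16.5% of all genes. FA added to MMA lowered 8 and raised 0 of them (median -0.19), 28.6% and 0% beside 9.53% and 4.19%. Of 26 G2/M genes, MMA raised 11 and lowered 0 (median 0.17), 42.3% and 0%. FA added to MMA lowered 26 and raised 0 (median -0.53), 100% and 0%, beside the same shares of all genes. In the interaction, 15 of 26 G2/M and 3 of 28 S phase genes were lower and 0 higher, 57.7% and 10.7% lower beside 1.47% of all genes. After median-ratio scaling MMA raised 17 S phase and 18 G2/M genes, 60.7% and 69.2% beside 8.16% of all genes. FA added to MMA then lowered 7 and 26, 25% and 100% beside 6.19%. The scaled interaction was lower in 2 and 15, 7.14% and 57.7% beside 1.62%. The G2/M genes together held 1592 to 1725 TPM in control, 1895 to 1898 TPM with MMA, 1505 to 1586 TPM with FA and 1264 to 1397 TPM with MMA+FA. The S phase genes held 726 to 774, 905 to 991, 762 to 848 and 749 to 910 TPM in the same order. In bulk RNA, fewer cells in a phase and less RNA per cell cannot be told apart. The sum of the 17 muscle markers was higher with FA and with MMA+FA, whereas the MMA libraries lay within the control range. It was 148.6 to 160.1 TPM in control, 149.2 to 149.5 TPM with MMA, 171.3 to 185.4 TPM with FA and 173.1 to 200.4 TPM with MMA+FA. The 12 fibroblast markers summed to 13041 to 13880 TPM in control, 13239 to 14549 TPM with MMA, 14691 to 16785 TPM with FA and 13438 to 15166 TPM with MMA+FA. Over all libraries the 10 endothelial markers, 2 of them at 0 throughout, summed to 0.35 to 0.65 TPM, and 9 leukocyte markers, 1 at 0, to 11.4 to 14.3 TPM. The part of these markers in the differences of the repair genes was not tested.

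**Figure D4:**
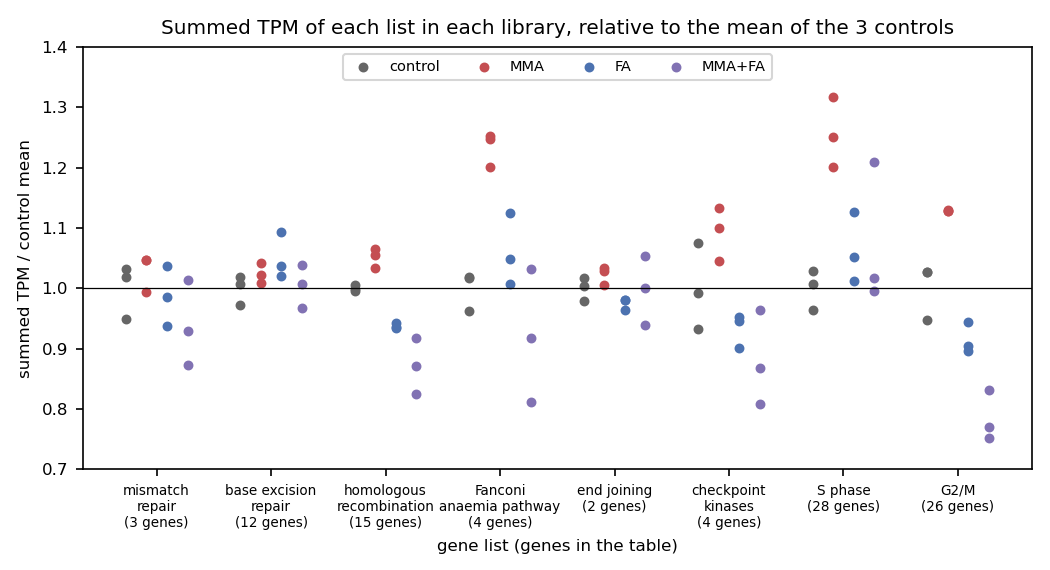
Summed TPM of each repair pathway and of the S phase and G2/M lists in each library, divided by the mean of the 3 control libraries; each point is a library, and the y axis starts at 0.7. Fanconi, S phase and G2/M sums are highest with MMA, recombination and G2/M sums are lowest with MMA+FA, and base excision and end joining sums stay close to 1.

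Since several of these genes moved together, their promoters were searched for the motifs of cell cycle transcription. RefSeq windows (build GRCr8) of 250 bases before to 50 after the annotated start were found for 34 of the 40 genes, and not for Neil3, Polb, Nbn, Blm, Xrcc2 and Chek2. The E2F motif was taken as TTTCCCGC, TTTCGCGC, TTTGCCGC or TTTGGCGC on either strand, and the CHR motif, which marks many G2/M genes, as TTTGAA on either strand. No matches of the 2 motifs overlapped in these genes. An E2F motif was found in 8 of 34 windows, 23.5%, beside 4.34% of the 9232 windows of genes tested and 2.14% of all 33469 windows. By pathway it was in 1 of 3 mismatch, 2 of 10 base excision, 2 of 12 recombination, 1 of 4 Fanconi and 2 of 3 checkpoint windows. The CHR motif was in 5 of 34, 14.7%, beside 11.9% and 18.3%. For comparison, 11 of 21 S phase windows held an E2F motif and 14 of 22 G2/M windows a CHR motif. A match describes letters, not a bound site.

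Of the genes called in at least 1 comparison, 6 that hold a match before the start are shown. Outside the interaction, Fanci was called higher with MMA, and Fanci, Bard1 and Chek1 lower when FA was added to MMA. Against control, Ung was higher and Bard1 and Rad51d lower with MMA+FA, and Xrcc1 was higher with FA. The stretches from before the start are printed with the motif in capitals (as its reverse complement where it lies on the opposite strand). They lie in GRCr8 at chr9:80143899-80144005 (Bard1, minus strand), chr1:142736403-142736458 (Fanci, plus strand), chr12:48154046-48154251 (Ung, minus strand), chr10:68321903-68321956 (Rad51d, minus strand), chr8:44629844-44629911 (Chek1, minus strand) and chr1:89269085-89269170 (Xrcc1, plus strand), and each reads 5′ to 3′ along its gene.
Bard1: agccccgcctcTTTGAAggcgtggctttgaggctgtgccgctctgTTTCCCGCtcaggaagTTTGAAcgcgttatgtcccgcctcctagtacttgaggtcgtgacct
Fanci: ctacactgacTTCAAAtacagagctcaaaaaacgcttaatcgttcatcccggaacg
Ung: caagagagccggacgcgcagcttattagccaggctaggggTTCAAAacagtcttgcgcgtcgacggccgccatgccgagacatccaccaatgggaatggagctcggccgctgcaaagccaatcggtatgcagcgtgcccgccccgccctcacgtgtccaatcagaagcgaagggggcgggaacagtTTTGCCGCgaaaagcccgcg
Rad51d: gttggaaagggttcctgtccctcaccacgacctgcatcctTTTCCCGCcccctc
Chek1: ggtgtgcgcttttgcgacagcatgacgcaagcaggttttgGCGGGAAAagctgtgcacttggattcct
Xrcc1: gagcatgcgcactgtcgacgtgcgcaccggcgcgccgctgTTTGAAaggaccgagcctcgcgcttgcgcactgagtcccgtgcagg

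Bard1 carried an E2F motif between a pair of CHR motifs, all in the same orientation. Ung carried a CHR motif on the opposite strand and an E2F motif beginning 20 bases before the start. Rad51d and Chek1 carried an E2F motif beginning 14 and 28 bases before the start, and Fanci and Xrcc1 a CHR motif beginning 240 and 64 bases before it. In Fancd2 the E2F motif began 9 bases after the annotated start and in Rad51c the CHR motif 24 bases after it. Bard1 and Ung both held each motif. With MMA+FA against control Ung was called higher, and Bard1 lower only as deposited (-0.15, adjusted p = 0.150 after median-ratio scaling). With MMA alone both had positive differences after scaling (Bard1 0.31 and Ung 0.44), of which only that of Bard1 was called. Whether the matches relate to the responses was not tested.

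**Figure D5:**
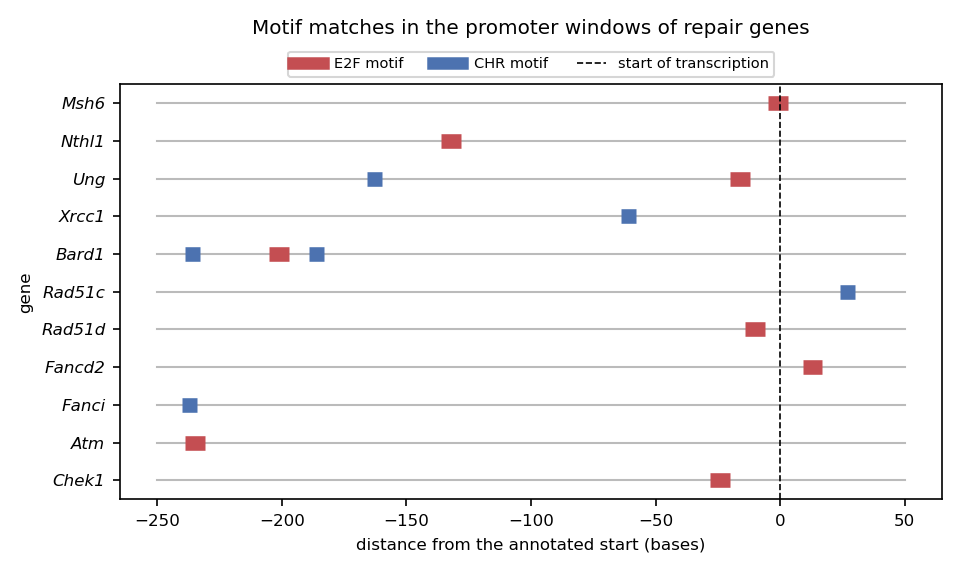
Positions of E2F (red) and CHR (blue) motif matches in the windows of the 11 repair genes that hold any, by distance in bases from the annotated start of transcription (dashed line). E2F matches of Msh6, Ung, Rad51d, Fancd2 and Chek1 lie within 30 bases of the start, those of Nthl1, Bard1 and Atm farther upstream.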

How the data were processed

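The deposited table gives TPM per gene for 12 libraries, computed by the authors. The submitters' processing notes name fastp for trimming, HISAT2 for alignment and the build mRatBN7.2, and RSEM appears in the title line of the file. The sources used here do not state versions, annotation release or strand setting, so overlapping antisense transcripts may not be separated. TPM keeps no depth, so counting error is unknown. All 12 sample columns were used.

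A fit of log2(TPM + 1) over the 12263 genes that averaged 1 TPM or more was made in limma 3.58.1 (R 4.3.3), with 1 mean per group, a mean-variance trend, 8 residual and 4.317 prior degrees of freedom. In each of 6 comparisons p-values were adjusted over all genes by the Benjamini-Hochberg method and called under 0.05. An exact permutation of 3 against 3 libraries cannot go below p = 0.1. The members and gene lists were chosen with earlier results of these data known. The members described in full are those called, up to 4 per pathway and comparison by smallest p, and up to 2 further genes are named per list, comparison and direction. Other members named, and the genes plotted, were chosen after their values were seen. In median-ratio scaling, a library's factor was its median ratio to the geometric means of the genes. The alternatives also included quantile normalization, leaving out mitochondrially encoded genes, other pseudocounts and filters, a fit with no trend, only the groups compared, a replicate block, summed loci and each library left out. The code was tested on simulated data. Promoter windows came from RefSeq (GRCr8), whereas the values rest on mRatBN7.2. Plots used matplotlib 3.10.9.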

Additional observations from a re-analysis of the deposited data

Results flagged for a closer look

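The difference made by MMA without FA differed from that with FA, by the interaction term in limma (n = 3 libraries per group), in 5 of the 40 members, all lower, and in 5 of 109 further repair genes. Of the 109, 4 were lower and 1 higher, 3.67% and 0.917% beside 1.47% and 0.938% of all genes. The 5 member calls fell to 0 without control replicate 1, MMA replicate 3 or FA replicate 1. Of the members, Neil3 had an interaction of -0.61, Fanci -0.51, Bard1 -0.49, Fancd2 -0.47 and Rad51c -0.33 on the log2 scale. In each of these the MMA libraries were higher than control and the MMA+FA libraries had a lower mean than the FA libraries. None of the 5 was called in the comparison of MMA+FA with FA. For Rad51c the 2 means were 12.9 and 13.3 TPM, a fall smaller than the median of -0.07 for all genes. Of the further repair genes, the interaction was -0.47, adjusted p = 0.0320 for the clamp loader gene Rfc2, -0.45, adjusted p = 0.0304 for the nuclease gene Slx1b, -0.40, adjusted p = 0.0146 for Rpa2 and -0.39, adjusted p = 0.0359 for Rfc5. It was positive only in Gtf2h1, a subunit of the transcription factor that opens DNA in nucleotide excision repair (0.34, adjusted p = 0.0244), which was lower than control with MMA (-0.31, adjusted p = 0.00259) and with FA (-0.28, adjusted p = 0.00734).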

How the results depend on the processing

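All values here are numbers of the 40 repair genes called in limma at an adjusted p under 0.05. After median-ratio scaling MMA gave 9, both compounds against control 6 and MMA added to FA 0, and after quantile normalization these were 12, 7 and 0. MMA added to FA also gave 0 when mitochondrially encoded genes were left out, with no filter on low values and when only the groups compared were fitted. With no filter FA alone gave 1 and the interaction 2. FA alone gave 1 without the mean-variance trend and 0 when only the groups compared were fitted. With each library left out in turn, the counts ran from 3 to 5 for MMA, 0 to 4 for FA, 9 to 16 for both against control, 8 to 16 for FA added to MMA, 0 to 3 for MMA added to FA and 0 to 6 for the interaction. The cause of these changes was not tested. Of the 44 called differences, fits with other settings kept 406 of 471 called, and fits with a library left out kept 180 of 294, with 0 reversed in both. Fitting only the groups compared was not possible for the interaction, which needs all 4. Sequencing depth is unknown, so how far it limits low genes such as Palb2 and Brip1 could not be assessed.

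No pairing by replicate number was evident in the values. The correlation of same-numbered deviations ran from -0.124 to 0.107, over 0.1 in 1 of 18 pairs, and that of different numbers from -0.203 to 0.141. Since the deviations are from means of only 3 libraries, this cannot settle whether same-numbered libraries shared a culture or day. With a replicate block the calls numbered 4 for MMA, 2 for FA, 14 for both against control, 15 for FA added to MMA, 1 for MMA added to FA and 4 for the interaction.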

Other observations

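Nucleotide excision repair, which removes bulky lesions, translesion synthesis, which copies past them, and the targets of p53 were measured alongside. Of 18 excision genes, MMA+FA lowered 6 and raised 1 against control, 33.3% and 5.56% beside 32.6% and 6.67% of all genes. After median-ratio scaling the counts were 2 and 3, 11.1% and 16.7% beside 13.9% and 15.5%, so neither count stands out from the background. Gtf2h1, a subunit of the transcription factor that opens DNA at the lesion, was lower with MMA (-0.31, adjusted p = 0.00259), with FA (-0.28, adjusted p = 0.00734) and with both (-0.25, adjusted p = 0.00155). Of 11 translesion and direct reversal genes, FA added to MMA lowered 4 and raised 0 (36.4% beside 9.53% of all genes for lower calls; the same counts after scaling, beside 6.19%), among them Rad18, a ubiquitin ligase that acts at stalled forks (-0.52, adjusted p = 0.00102), and the polymerase gene Polk (-0.36, adjusted p = 0.00551). MMA alone lowered Rev1 (-0.20, adjusted p = 0.0200) and Rev3l (-0.30, adjusted p = 0.0383), 18.2% beside 16.5% of all genes, and 0 of the 11 after scaling.

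Of 20 p53 targets, MMA raised 0 and lowered 3, FA raised 1 and lowered 1, and both compounds against control raised 1 and lowered 8. This list shares Polk with the translesion genes, and Ddb2 and Xpc with the nucleotide excision genes. The lower shares of 15% with MMA and 40% with both lay near the 16.5% and 32.6% of all genes. After median-ratio scaling the last comparison gave 2 higher and 1 lower, 10% and 5% beside 15.5% and 13.9%. The interaction gave 0 calls in limma with and without scaling (3 at an unadjusted p under 0.05 without it). All adjusted p-values are limma's over the 12263 genes, with 3 libraries per group.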
